A study of Mus musculus with 6 samples.

Results

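The respiratory chain and ATP synthase genes of the nucleus were taken from a table of 33385 mouse genes by name. The set held every gene whose symbol starts with Nduf, Uqcr, Atp5 or Cox4 to Cox8, together with Cyc1, Cycs and Sdha to Sdhd, and left out 12 rows whose names end in -ps. It came to 102 genes, of which 50 belong to complex I, 4 to complex II, 9 to complex III, 20 to complex IV and 18 to complex V, and 1, Cycs, encodes cytochrome c. The table itself marked 88 of the 102 as oxidative phosphorylation genes. The other 14 were mostly assembly factors and extra gene copies.

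RNA had been sequenced from the hippocampus of Bcas2F/F mice, in which both Bcas2 alleles are floxed, that is, flanked by sites cut by the Cre recombinase. Bcas2 encodes a subunit of the PRP19 complex, which acts in the spliceosome. The knockdown group (3 libraries) had received AAV2/9-Syn-cre, an adeno-associated virus with a Cre gene driven by the neuronal synapsin promoter. The control group (3 libraries) had received a vehicle virus (AAV-vehicle). Animals of the control group carried the same floxed alleles. By design, glia and other cells without synapsin promoter activity would keep an intact gene in both groups. Where Cre acted was not measured here. Age and sex are not given in the labels, which also do not say whether each library is a separate animal, so the spread behind each p-value is that between libraries and may be technical.

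Complexes I to IV of the inner mitochondrial membrane pass electrons from NADH and succinate to oxygen. Complexes I, III and IV pump protons, and complex V, the ATP synthase, makes ATP from the proton gradient. Complexes I, III, IV and V join subunits from the nucleus with subunits encoded by mitochondrial DNA, while all subunits of complex II are nuclear. Neurons depend on this pathway for ion pumping and synaptic transmission.

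The targeted gene, Bcas2, was at 9.08, 9.17 and 8.87 FPKM in knockdown replicates 1 to 3 and at 9.87, 9.71 and 9.44 FPKM in control replicates 1 to 3. FPKM is the authors' level per kilobase of gene, scaled to the size of the library. The gene lengths used are not given, so levels of different genes compare only roughly. All knockdown libraries lay below all controls, yet only by a little, at 93.4% of the control mean, and the log2 fold change of -0.07 (SE 0.0649, 95% interval -0.23 to 0.08, edgeR unadjusted p = 0.289, adjusted p = 0.861) did not pass the test. The name knockdown is thus that of the treatment, and a loss of Bcas2 is not shown by these values. They cover the whole gene in whole tissue, so reads from exons outside the floxed part, which the labels do not give, and from cells without Cre count too.

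Each library held 55914768 to 76481458 counts, and 26028 to 26973 genes had a count above 0. Markers of neurons were abundant in all 6 libraries, with a summed level of 1134 to 1259 FPKM over 8 genes, and those of skeletal and heart muscle were near 0, at 3.17 to 4.27 FPKM over 6 genes. The libraries also differed in ways the treatment labels do not describe. Control replicates 2 and 3 had 10430 and 10594 counts of Y-linked genes and the other 4 libraries had 0. Control replicate 3 had 4326 FPKM summed over 8 choroid plexus markers against 4.0 to 16.7 FPKM elsewhere. Markers of oligodendrocytes summed to 560 to 580 FPKM in the knockdown libraries and 683 to 1081 FPKM in the controls. The part of these differences in the results on respiratory genes was not tested, apart from the values given without control replicate 3 and with a model term for libraries with Y-linked counts. In bulk tissue, fewer cells of a type and less RNA per cell cannot be told apart.

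Levels of the respiratory genes in FPKM spanned a wide range, and ranks between genes or complexes depend on the gene lengths used. In knockdown replicate 1, Ndufb2 had 4.95 FPKM from 1915 counts and Uqcr11 35.6 FPKM from 1567 counts. The median over the 102 genes was 22.3 FPKM, against 0.415 FPKM over all genes in the table, many of them at low levels. Among genes that averaged 1 FPKM or more, it was 24.0 FPKM for the respiratory genes and 6.03 FPKM for all genes. Complex I genes had a median of 11.8 FPKM, complex II genes 41.2 FPKM, complex III genes 42.3 FPKM, complex IV genes 24.0 FPKM and complex V genes 29.9 FPKM. The highest were Atp5f1a, the alpha subunit of the ATP synthase, with a mean of 230 FPKM over the 6 libraries, and Cox8a, a small subunit of cytochrome c oxidase, with 217 FPKM. Of the 102 genes, 94 averaged 1 FPKM or more. The 8 below it were tissue isoforms of complex IV or second gene copies.

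**Figure D1:**
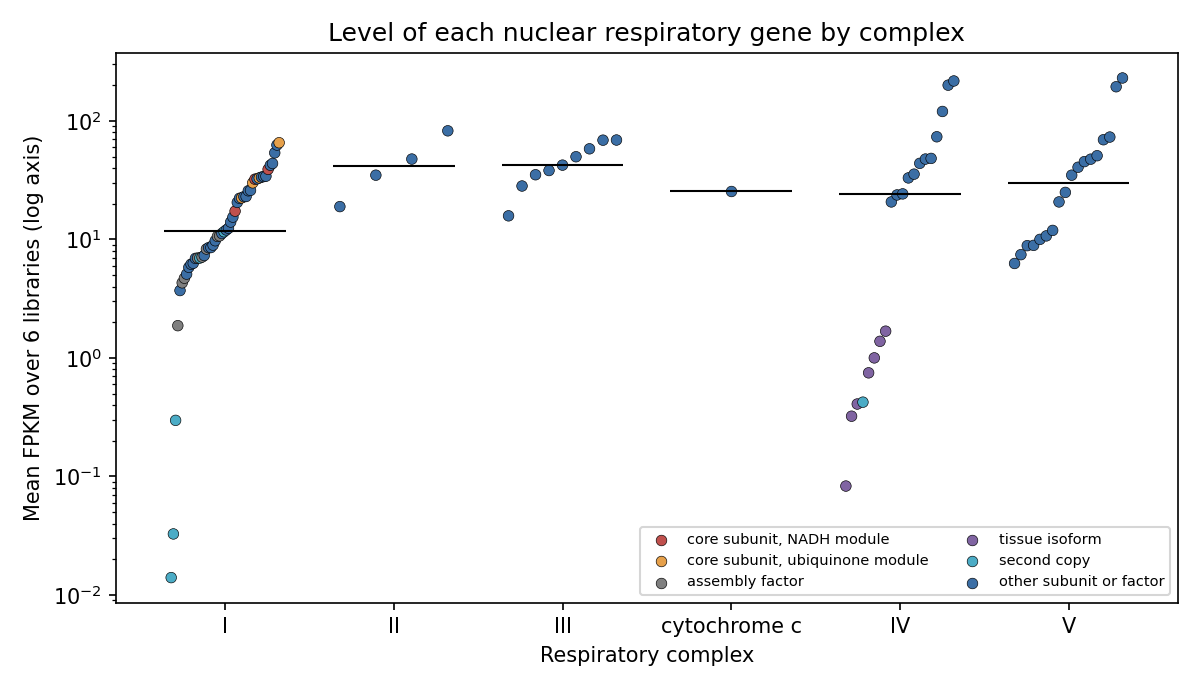
Mean FPKM over the 6 libraries (log axis) of each of the 102 nuclear respiratory genes, in columns by complex and coloured by role, with a line at the median of each complex. Most genes lay above 1 FPKM, and the points below it are tissue isoforms of complex IV and second copies.

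No respiratory gene differed between the groups at an adjusted p under 0.05. Of the 102 genes, 97 passed the filter on low counts and were tested with edgeR's quasi-likelihood test, and 0 of them were called, as were 0 of all 20946 genes (0% of genes tested), at p-values adjusted by the Benjamini-Hochberg method. The smallest adjusted p of a respiratory gene was 0.792. At an unadjusted p under 0.05 there were 6 respiratory genes, a share of 6.19%, and the share over all genes tested was also 6.19%. All 6 were higher after Cre, where 3.03% of all genes tested were higher and 3.16% lower at this p. DESeq2 called 74 of the 20946 genes (0.353%) and none of the respiratory genes, and limma on log2(FPKM + 1) called 0 of 16076.

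The differences of the respiratory genes were small in size. Of the 97 tested, 62 had a higher and 35 a lower estimate in the knockdown group, which is 63.9% higher against 49.9% over all genes tested. Their median log2 fold change was 0.032, against -0.001 over all genes. In limma on log2(FPKM + 1), where no scaling between libraries is applied beyond that of the FPKM values, 50 of 95 respiratory genes (52.6%) were higher with a median of 0.008, against 44.1% and -0.020 over all genes. The estimates of 61 of the 97 lay within 0.1 of 0 on the log2 scale. The median standard error of a respiratory gene was 0.0869, against 0.122 over all genes that averaged 1 FPKM or more.

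Groups did not overlap in FPKM for 13 of the 97 genes (13.4%), against 13.0% of all genes tested. Every knockdown library was above every control library for 10 of the 97 (10.3%), against 5.47% of all genes tested, and below for 3 of the 97 (3.09%), against 7.50%. The 10 were Ndufv1, Ndufv2, Ndufs1, Ndufb8, Sdha, Uqcrc1, Cox7a2, Cox7b2, Atp5po and Atp5mk, and the 3 were Ndufaf1, Sdhc and Ndufa4.

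**Figure D2:**
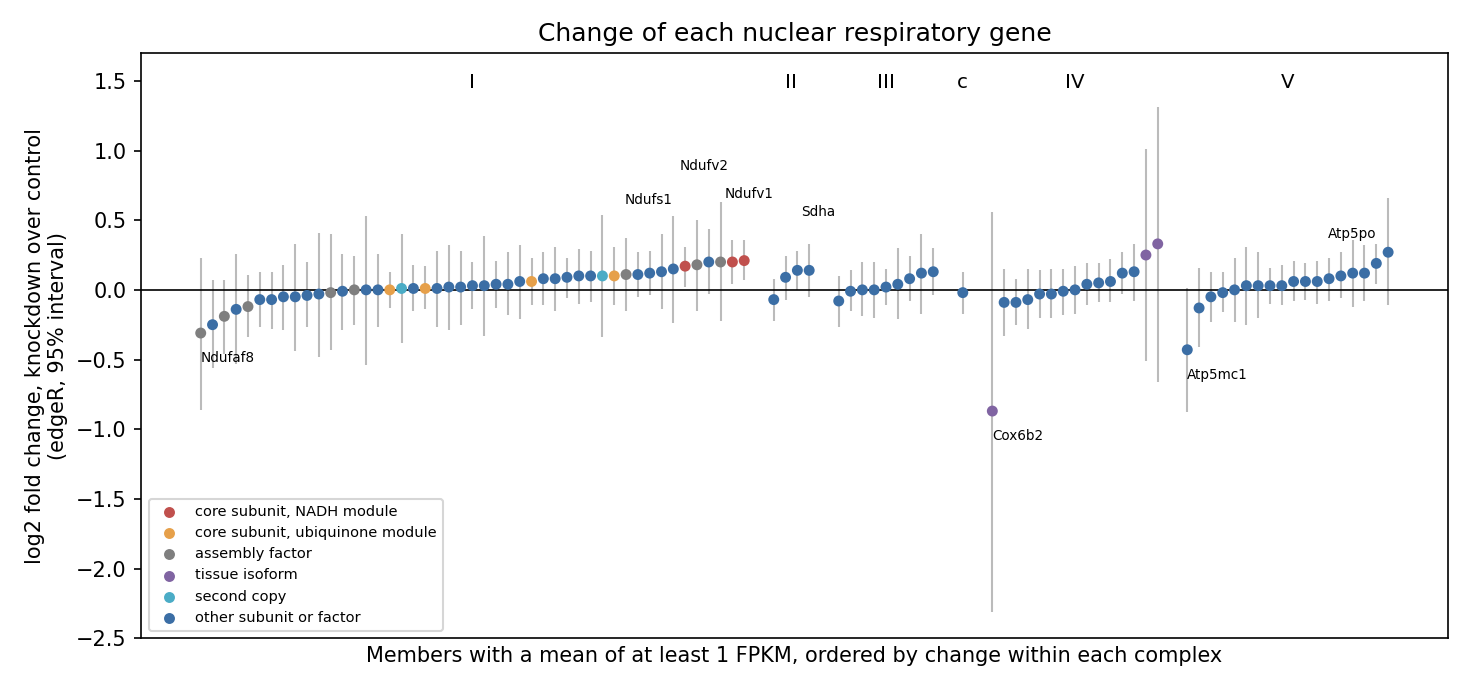
Log2 fold change (knockdown over control, edgeR) with its 95% interval for the 94 nuclear respiratory genes that averaged 1 FPKM or more, ordered by size within each complex (c, cytochrome c). Most points lay within 0.1 of 0. The 3 core subunits of the NADH module lay near the upper end of complex I, with intervals above 0. Other complex I genes lay there too, with Ndufa7 and Ndufaf6 at 0.20 and Ndufaf5 at 0.18, and their intervals included 0.

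In complex I, 3 of the 47 genes tested had an unadjusted p under 0.05 (6.38%, against 6.19% of all genes tested) and 5 had groups that did not overlap (10.6%, against 13.0%). These 3 were the core subunits of the NADH module, which were singled out after their values were seen. This module is the tip of the enzyme that takes electrons from NADH, and its 3 nuclear core subunits also had groups that did not overlap, with a median log2 fold change of 0.200, although none passed the test at an adjusted p of 0.792. Ndufv1 encodes the flavoprotein that binds NADH, and it was at 43.0, 40.9 and 40.9 FPKM in knockdown replicates 1 to 3 and at 37.1, 37.6 and 34.6 FPKM in control replicates 1 to 3. The lowest knockdown library was thus above the highest control. Its log2 fold change was 0.21 (SE 0.0623, 95% interval 0.07 to 0.36, edgeR unadjusted p = 0.00996, adjusted p = 0.792), or 116% of the control level. Ndufv1 lies on chromosome 19 from 4057384 to 4062759 on the minus strand of GRCm39.

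Ndufv2 encodes the second subunit of the flavoprotein pair and holds an iron-sulfur cluster. It was at 33.0, 36.1 and 33.5 FPKM in the knockdown libraries and at 31.6, 29.8 and 29.3 FPKM in the controls, again without overlap. The log2 fold change was 0.20 (SE 0.0701, edgeR unadjusted p = 0.0232, adjusted p = 0.792). Ndufs1, the large iron-sulfur subunit that passes electrons on from the flavoprotein, was at 17.8, 18.7 and 17.8 FPKM after Cre and at 16.8, 16.7 and 15.7 FPKM in the controls. Here too each knockdown library was above each control, and the log2 fold change was 0.17 (SE 0.0619, edgeR unadjusted p = 0.0280, adjusted p = 0.792).

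With a model term for libraries with Y-linked counts, which leaves control replicate 1 as the only control of the same kind as the knockdown libraries, these 3 genes kept higher estimates of 0.18, 0.13 and 0.13 for Ndufv1, Ndufv2 and Ndufs1. Their unadjusted edgeR p-values were then 0.113, 0.259 and 0.229. Leaving out any 1 library gave 0.18 to 0.23 for Ndufv1, 0.15 to 0.24 for Ndufv2 and 0.14 to 0.19 for Ndufs1.

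**Figure D3:**
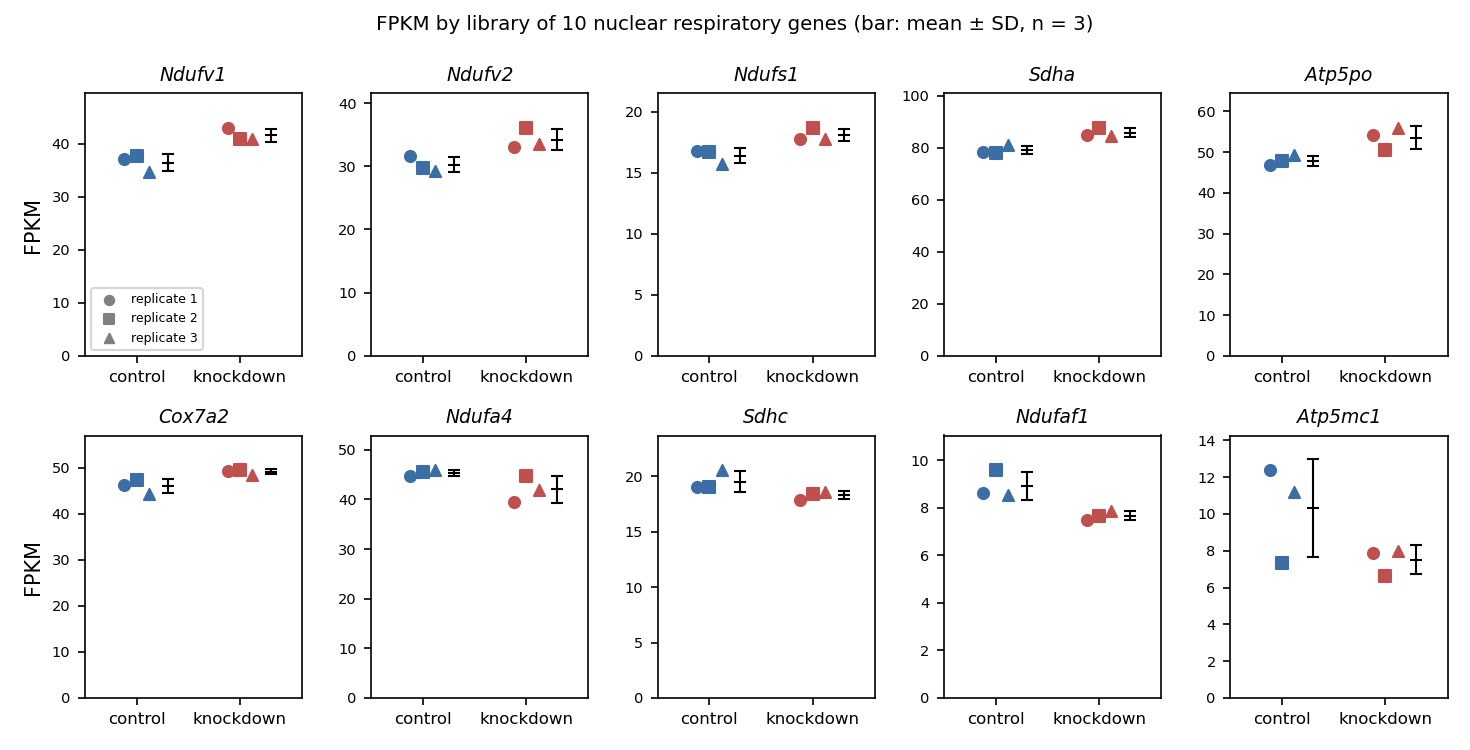
FPKM in each of the 6 libraries (circles, squares and triangles, replicates 1 to 3; bars, mean ± SD, n = 3) for 10 nuclear respiratory genes. The upper row and Cox7a2 are higher in every knockdown library than in any control, Ndufa4, Sdhc and Ndufaf1 are lower, and for Atp5mc1 the knockdown libraries at 6.61 to 8.01 FPKM overlap control replicate 2 at 7.31 FPKM.

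The promoters of Ndufv1 and Ndufv2 are shown because these complex I genes had the smallest p-values of the complex. Each is 300 bases, from 250 before to 50 after the start of transcription, from RefSeq on GRCm38.p6, and capitals mark every match on either strand to the motifs listed further on for NRF1, ETS factors, YY1, NFY, SP factors and the TATA box.
Ndufv1 promoter, chr19:4012706-4013005, minus strand: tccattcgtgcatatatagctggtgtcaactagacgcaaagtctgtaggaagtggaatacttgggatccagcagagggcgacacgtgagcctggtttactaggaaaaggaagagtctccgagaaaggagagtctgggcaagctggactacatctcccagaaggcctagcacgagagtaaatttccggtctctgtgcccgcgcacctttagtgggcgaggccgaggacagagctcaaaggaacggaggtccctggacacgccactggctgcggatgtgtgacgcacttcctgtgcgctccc
Ndufv2 promoter, chr17:66101510-66101809, minus strand: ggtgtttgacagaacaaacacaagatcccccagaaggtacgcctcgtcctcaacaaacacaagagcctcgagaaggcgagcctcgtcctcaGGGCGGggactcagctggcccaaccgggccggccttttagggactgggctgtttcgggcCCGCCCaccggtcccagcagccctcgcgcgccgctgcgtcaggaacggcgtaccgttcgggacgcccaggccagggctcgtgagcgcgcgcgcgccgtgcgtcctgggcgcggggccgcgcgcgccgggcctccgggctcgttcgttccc
The Ndufv1 window held no match to any of these strings. The Ndufv2 window held GGGCGG, a string bound by SP factors, once on each strand.

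The 4 core subunits of the module that passes electrons on to ubiquinone had a median log2 fold change of 0.038, with 0 of 4 groups free of overlap. For Ndufs7 and Ndufs8, which carry the last iron-sulfur clusters before ubiquinone, the log2 fold changes were 0.06 (95% interval -0.11 to 0.23) and 0.01 (95% interval -0.14 to 0.17). A test of the NADH module against the ubiquinone module was not made, since the modules were compared after their values were known.

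Accessory subunits, which surround and stabilise the core, numbered 30. Of these, 19 had higher and 11 lower estimates, the median was 0.023, and 0 had an unadjusted p under 0.05. The extremes, named after their values were seen, were Ndufa7 at 0.20 (95% interval -0.03 to 0.44) and Ndufb2 at -0.25 (95% interval -0.56 to 0.07). Ndufa7 was at 13.3, 13.4 and 12.7 FPKM after Cre and 11.5, 10.6 and 12.7 FPKM in the controls, so that its groups touched at 12.7 FPKM. Ndufb8 was the only accessory subunit whose groups did not overlap, at 15.4, 15.6 and 16.6 FPKM against 15.1, 15.1 and 14.3 FPKM.

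The 8 assembly factors, proteins that help build complex I and are absent from the finished enzyme, had 3 higher and 5 lower estimates. Ndufaf1, which acts on an early membrane intermediate, was at 7.50, 7.65 and 7.86 FPKM in the knockdown libraries and 8.62, 9.60 and 8.53 FPKM in the controls. Every knockdown library was below every control, and the log2 fold change was -0.19 (SE 0.113, edgeR unadjusted p = 0.132, adjusted p = 0.816). Ndufaf8 had the lowest estimate of complex I, -0.31 (95% interval -0.86 to 0.23), with overlapping groups at 4.91, 4.19 and 3.35 FPKM against 4.75, 4.47 and 6.52 FPKM.

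Some complex I values are uncertain because near-identical copies of the gene exist elsewhere in the genome. Ndufa12 is an accessory subunit gene on chromosome 10, and Ndufa12-ps is a processed copy on chromosome 5 that the naming rule left out. Over 399 aligned bases of the coding sequence they had 2 differences (99.5% identity, GENCODE M21). The stretch below is shown because reads from it fit either gene except at the base in capitals. For Ndufa12-ps, listed as a processed pseudogene, the bases given as coding are numbered along its transcript.
Ndufa12 coding bases 37 to 156: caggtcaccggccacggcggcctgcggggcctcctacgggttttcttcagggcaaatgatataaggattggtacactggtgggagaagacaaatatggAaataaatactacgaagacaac
Ndufa12-ps coding bases 1 to 120: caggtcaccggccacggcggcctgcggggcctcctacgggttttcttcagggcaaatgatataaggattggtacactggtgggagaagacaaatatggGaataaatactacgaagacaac
Ndufa12 was listed at 5.95 to 8.73 FPKM and the copy at 32.1 to 45.8 FPKM. In counts the copy had 1.32 to 1.80 times the number given to Ndufa12, so more reads had been assigned to it than to the gene that bears introns. Ndufb4c, a processed copy that the rule kept, matched the Ndufb4 coding sequence at all 387 of 387 bases. Ndufb4 was at 9.74 FPKM, Ndufb4c at 11.6 FPKM and a further copy, Ndufb4b, at 6.96 FPKM. In counts Ndufb4 was the highest of them, at 1145 to 1576 against 270 to 401 for Ndufb4c and 193 to 258 for Ndufb4b. The log2 fold changes of Ndufb4, Ndufb4c and Ndufb4b were 0.04, 0.01 and 0.10. How the counting divided reads between such copies is not given in the sources used here. Ndufs6b, Ndufa11b and Ndufb11b, with means of 0.297, 0.0327 and 0.0140 FPKM, were too low to be tested.

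Complex II, succinate dehydrogenase, links the citric acid cycle to the chain through 4 subunits. Their summed level was 184, 192 and 192 FPKM after Cre and 179, 179 and 177 FPKM in the controls, so the groups did not overlap. Sdha, the flavoprotein that oxidises succinate, was at 84.9, 87.7 and 84.6 FPKM in the knockdown libraries and 78.3, 78.0 and 81.1 FPKM in the controls. Each knockdown library was above each control, with a log2 fold change of 0.14 (SE 0.0586, edgeR unadjusted p = 0.0465, adjusted p = 0.792). Sdhb, the iron-sulfur subunit, had a log2 fold change of 0.09 (95% interval -0.07 to 0.24).

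The membrane anchors of complex II went opposite ways in their estimates. Sdhd was at 47.0, 50.7 and 50.9 FPKM after Cre and 47.9, 47.2 and 42.0 FPKM in the controls, with overlapping groups and a log2 fold change of 0.14 (95% interval -0.05 to 0.33). Sdhc was at 17.9, 18.4 and 18.6 FPKM against 19.0, 19.0 and 20.6 FPKM. All 3 knockdown libraries lay below the controls, by a log2 fold change of -0.07 (SE 0.0641, edgeR unadjusted p = 0.318, adjusted p = 0.869). The Sdhd value was 0.08 without control replicate 3.

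Complex III, the cytochrome bc1 complex, hands electrons from ubiquinol to cytochrome c, and its 9 nuclear genes had a median log2 fold change of 0.018. Uqcrc1, a core protein of the matrix side, was at 51.8, 51.8 and 51.4 FPKM after Cre and 48.9, 51.0 and 44.1 FPKM in the controls. The groups did not overlap, although the highest control was close to the knockdown libraries, and the log2 fold change was 0.13 (SE 0.0708, edgeR unadjusted p = 0.108, adjusted p = 0.806). Without control replicate 3, the lowest control, it was 0.07. Uqcrc2, the other core protein, had the highest mean FPKM of the complex. Its groups overlapped at 67.8, 70.1 and 72.7 FPKM against 65.0, 72.4 and 65.5 FPKM.

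The subunits of complex III that carry electrons were close to level. Uqcrfs1, the Rieske iron-sulfur protein, had a log2 fold change of -0.01 (95% interval -0.15 to 0.14), which was 0.01 with the term for Y-linked counts. Cyc1, cytochrome c1, had 0.02 (95% interval -0.11 to 0.15) and -0.01 in limma on log2(FPKM + 1). Uqcrq was at 16.2, 14.3 and 15.1 FPKM against 16.2, 16.0 and 16.8 FPKM, with a log2 fold change of -0.08 (95% interval -0.27 to 0.10). Its mean FPKM was the lowest of the complex, although it had 1664 to 2439 counts against 1329 to 1857 for Uqcr11. Cycs, the mobile carrier cytochrome c, was at 25.3, 24.7 and 25.6 FPKM after Cre and 26.3, 27.0 and 24.6 FPKM in the controls. Its groups overlapped, and the log2 fold change was -0.02 (95% interval -0.17 to 0.13).

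Complex IV, cytochrome c oxidase, reduces oxygen. Its nuclear genes divided evenly, 9 with higher and 9 with lower estimates of 18 tested, with a median log2 fold change of -0.005. The summed level of the complex overlapped between the groups, at 913, 882 and 875 FPKM against 905, 877 and 904 FPKM. That of complex I overlapped too, at 951, 949 and 923 FPKM against 923, 904 and 935 FPKM. So did that of complex III, at 412, 403 and 407 FPKM against 410, 404 and 394 FPKM. Cox4i1, which takes part in assembly and in control by ATP, was at 127, 121 and 115 FPKM after Cre and 120, 120 and 117 FPKM in the controls. The knockdown range enclosed the controls, and the log2 fold change was 0.05 (95% interval -0.09 to 0.19). Cox5a and Cox5b, subunits that face the matrix, had log2 fold changes of -0.03 (95% interval -0.20 to 0.14) and 0.06 (95% interval -0.09 to 0.22). Cox5b-ps, a copy with 99.2% identity over 387 coding bases, was listed at 4.68 to 7.10 FPKM, so Cox5b values too may share reads.

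Cox7a2 and Ndufa4 were the broadly expressed complex IV genes whose groups did not overlap, in opposite directions. Cox7a2 was at 49.3, 49.6 and 48.5 FPKM after Cre and 46.2, 47.4 and 44.4 FPKM in the controls, a log2 fold change of 0.12 (SE 0.0641, edgeR unadjusted p = 0.104, adjusted p = 0.805). Ndufa4, first assigned to complex I and later placed in complex IV, was at 39.4, 44.8 and 42.0 FPKM against 44.8, 45.5 and 46.0 FPKM. Knockdown replicate 2 and control replicate 1 nearly met, and the log2 fold change was -0.09 (SE 0.0706, edgeR unadjusted p = 0.259, adjusted p = 0.851). Cox6c, a small membrane subunit, had overlapping groups and a log2 fold change of 0.13 (95% interval -0.08 to 0.33).

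Several complex IV subunits are encoded by alternative genes used in different tissues, and these hippocampal libraries held almost only the broadly used form. Cox6a1 was at 188 to 215 FPKM, while Cox6a2, the heart and skeletal muscle form, was at 0.924 to 2.41 FPKM and made 0.428% to 1.26% of their sum. Cox4i2, a form known from lung and oxygen-sensing cells, made 0.297% to 1.09% of the sum with Cox4i1. Cox8a was at 206 to 225 FPKM, and Cox8b, the muscle form, was listed at 0 in every library except control replicate 3, where it was at 0.498 FPKM. The other muscle form, Cox7a1, was at 0 to 0.930 FPKM, beside 48.2 FPKM for Cox7a2l, which joins complexes III and IV in supercomplexes. Ndufa4l2 made 1.77% to 4.0% of its sum with Ndufa4. Their tests were imprecise, with log2 fold changes of 0.33 (95% interval -0.66 to 1.31) for Cox6a2, -0.30 (95% interval -1.53 to 0.93) for Cox4i2, -0.87 (95% interval -4.21 to 2.46) for Cox7a1 and 0.25 (95% interval -0.51 to 1.01) for Ndufa4l2. When each library was left out in turn, Cox6a2 ranged from 0.08 without control replicate 3 to 0.83 without control replicate 2, Cox7a1 from -1.45 without control replicate 2 to -0.23 without control replicate 3, and Ndufa4l2 from 0.01 without control replicate 2 to 0.40 without control replicate 1. The direction of the Cox4i2 and Ndufa4l2 values turned to 0.15 and -0.01 with the term for Y-linked counts.

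Cox6b2 and Cox7b2, forms known from testis, differed between libraries by more. Cox6b2 was at 0.747, 0.871 and 0.413 FPKM after Cre and 0.628, 0.671 and 2.67 FPKM in the controls. Control replicate 3, the library with the choroid plexus transcripts, was the highest and the other libraries overlapped. The log2 fold change was -0.87 (95% interval -2.31 to 0.56), which became 0.10 without control replicate 3. Cox7b2 was at 0.487, 0.608 and 0.583 FPKM after Cre and 0.0779, 0.176 and 0 FPKM in the controls. The groups did not overlap, and the log2 fold change of 2.54 (SE 0.949, 95% interval 0.32 to 4.77, edgeR unadjusted p = 0.0302, adjusted p = 0.792) rested on 19, 22 and 19 counts against 4, 7 and 0 counts. It was 1.99 without control replicate 3, 3.50 without control replicate 2, and 0.53 in limma on log2(FPKM + 1) without a filter, a scale that understates changes of low genes. Cox7b itself, on the X chromosome, had a log2 fold change of -0.07 (95% interval -0.28 to 0.15) at 24.2 FPKM. Cox6c2, a second copy at a mean of 0.423 FPKM, was not tested.

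**Figure D4:**
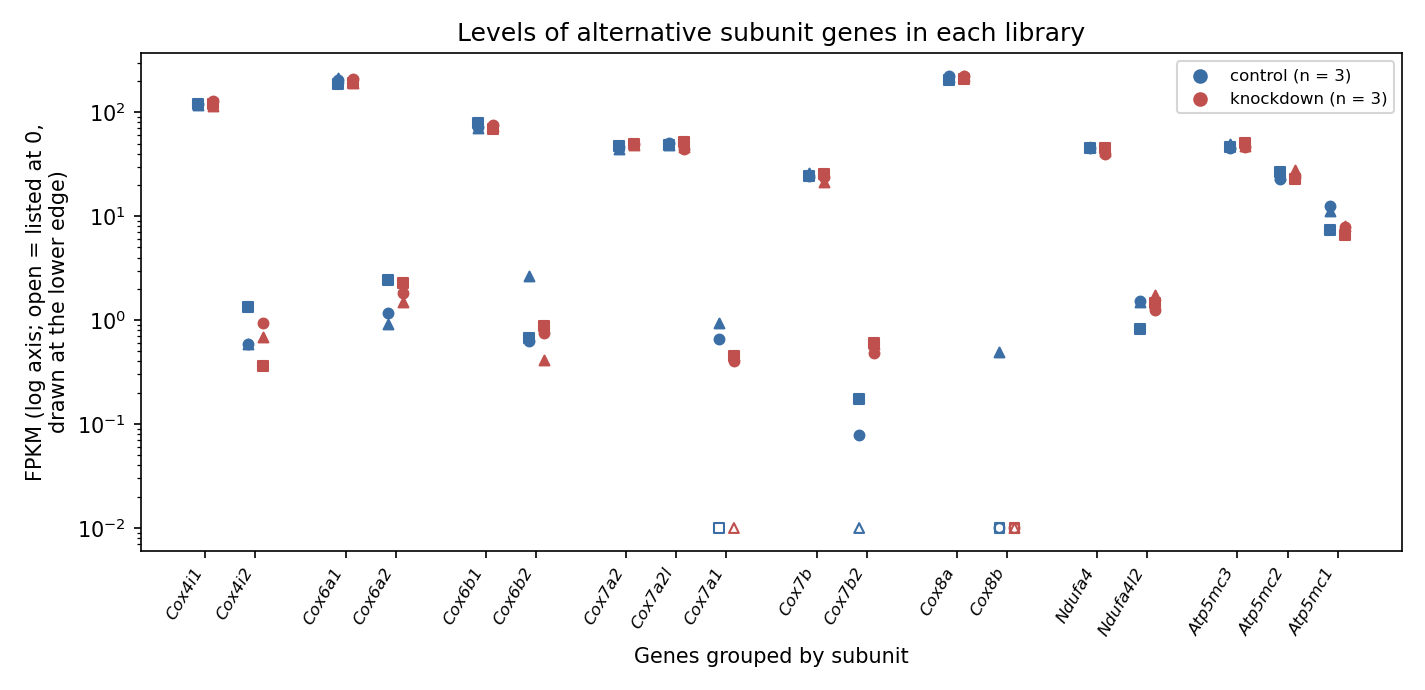
FPKM (log axis) in each library of genes that encode alternative forms of a subunit of complex IV or of subunit c of the ATP synthase, grouped by subunit, with control libraries in blue and knockdown libraries in red (n = 3 each; circles, squares and triangles, replicates 1 to 3; open symbols, listed at 0). Muscle and testis forms lay at or below 2.67 FPKM in all libraries, and Cox6b2 was highest in control replicate 3.

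Complex V had 14 of 18 genes with higher estimates and a median log2 fold change of 0.046, and its summed level did not overlap between the groups, at 903, 911 and 909 FPKM after Cre against 873, 894 and 878 FPKM. In limma on log2(FPKM + 1) the median was 0.021, with 13 of 18 higher. The catalytic head gave small differences. Atp5f1a was at 224, 252 and 233 FPKM against 222, 225 and 223 FPKM, a log2 fold change of 0.10 (95% interval -0.06 to 0.27). Atp5f1b, the beta subunit with the catalytic sites, was at 200, 193 and 197 FPKM against 192, 196 and 187 FPKM, a log2 fold change of 0.06 (95% interval -0.08 to 0.21). Groups overlapped for both genes.

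Atp5po, the subunit of the stalk that holds the head in place, was at 54.1, 50.6 and 56.0 FPKM after Cre and 46.8, 47.8 and 49.2 FPKM in the controls. Each knockdown library was above each control, and the log2 fold change was 0.19 (SE 0.0621, 95% interval 0.04 to 0.33, edgeR unadjusted p = 0.0194, adjusted p = 0.792). With the term for Y-linked counts it was 0.21 (edgeR unadjusted p = 0.0762). Atp5if1, the inhibitor that blocks ATP hydrolysis when the proton gradient collapses, had overlapping groups and a log2 fold change of 0.12 (95% interval -0.12 to 0.36). Atp5me, a small membrane subunit, had the highest estimate of the complex, 0.27 (95% interval -0.11 to 0.66), at 10.1, 9.03 and 9.73 FPKM against 7.60, 7.42 and 9.20 FPKM. Control replicate 3 overlapped knockdown replicate 2. Atp5mg, the gene of the complex with the lowest mean FPKM, was level at 0.00 (95% interval -0.23 to 0.23). In counts it was above Atp5me, at 2449 to 2999 against 295 to 428.

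Subunit c, which forms the rotating ring in the membrane, is encoded by 3 genes, Atp5mc1, Atp5mc2 and Atp5mc3. Their proteins differ in the leader that guides import, and the last 78 codons encode the same residues in all 3 genes (GENCODE M21). Of the 234 bases of that stretch, 63 positions differ among the genes, and only 23 codons are spelled the same way. The stretches below are shown because they let reads from these genes be told apart, and capitals mark the 33 positions at which they differ.
Atp5mc1 coding bases 175 to 294: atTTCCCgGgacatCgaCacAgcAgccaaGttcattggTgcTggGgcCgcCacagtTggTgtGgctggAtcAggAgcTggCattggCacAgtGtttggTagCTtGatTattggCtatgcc
Atp5mc2 coding bases 205 to 324: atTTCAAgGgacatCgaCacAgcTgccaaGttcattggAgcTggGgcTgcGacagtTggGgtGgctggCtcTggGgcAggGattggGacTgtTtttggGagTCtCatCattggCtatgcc
Atp5mc3 coding bases 190 to 309: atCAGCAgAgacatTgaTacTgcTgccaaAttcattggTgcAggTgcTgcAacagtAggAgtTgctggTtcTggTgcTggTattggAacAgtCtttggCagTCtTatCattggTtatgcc
Atp5mc3 was the most abundant at a mean of 47.5 FPKM, followed by Atp5mc2 at 24.9 FPKM and Atp5mc1 at 8.90 FPKM. In FPKM, every library had Atp5mc3 above Atp5mc2 and Atp5mc2 above Atp5mc1. In counts, Atp5mc1 was above Atp5mc2 in control replicates 1 (4999 against 3154) and 3 (3437 against 2613). It was below Atp5mc2 in the other libraries.

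Atp5mc1 had the lowest estimate of any respiratory gene with a mean above 1 FPKM other than Cox6b2. It was at 7.90, 6.61 and 8.01 FPKM after Cre and 12.4, 7.31 and 11.2 FPKM in the controls. Control replicates 1 and 3 were the highest, and control replicate 2 lay among the knockdown libraries. The log2 fold change was -0.43 (SE 0.190, 95% interval -0.88 to 0.01, edgeR unadjusted p = 0.0549, adjusted p = 0.792), and it was -0.63 without control replicate 2, -0.27 without control replicate 1 and -0.71 with the term for Y-linked counts. Atp5mc1 made 10.0%, 8.27% and 9.65% of the summed FPKM of the 3 genes after Cre and 15.4%, 9.17% and 13.0% in the controls. The size of these shares depends on the gene lengths used. The sum itself overlapped, at 78.7, 80.0 and 83.0 FPKM against 80.7, 79.7 and 85.7 FPKM. Atp5mc2 and Atp5mc3 had log2 fold changes of 0.03 (95% interval -0.20 to 0.27) and 0.06 (95% interval -0.10 to 0.21).

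Promoter sequence was available for 80 of the 102 genes in the RefSeq table for GRCm38.p6, and it was searched for strings bound by factors known to drive respiratory genes, on both strands. The core of the site for nuclear respiratory factor 1 (NRF1), GCGCA and GCGC with any 1 base between them, was in 25.0% of the respiratory promoters, in 5.19% of all promoters in the table and in 9.48% of promoters of genes tested here. Its symmetrical form, with T as that base and counted within it, was in 8.75%, 1.07% and 1.89%. CCGGAAG, bound by GABPA and other ETS factors, was in 22.5%, 9.93% and 16.6%, and AAGATGGCG, bound by YY1, in 10.0%, 1.64% and 2.81%. Strings of general promoters were set against the same backgrounds, in the same order. CCAAT was in 42.5%, 41.1% and 42.3%, so it was close to both. TATAAA was in 8.75%, 15.7% and 9.69%, below both. GGGCGG was in 46.2%, 38.2% and 62.7%, above all promoters and below those of tested genes. A match describes the letters in this window and does not show binding.

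The promoters of Sdha, Uqcrc1, Cox6a1 and Atp5po are shown as examples with the NRF1 string from complexes II to V, with matches to any of the strings in capitals.
Sdha promoter, chr13:74350191-74350490, minus strand: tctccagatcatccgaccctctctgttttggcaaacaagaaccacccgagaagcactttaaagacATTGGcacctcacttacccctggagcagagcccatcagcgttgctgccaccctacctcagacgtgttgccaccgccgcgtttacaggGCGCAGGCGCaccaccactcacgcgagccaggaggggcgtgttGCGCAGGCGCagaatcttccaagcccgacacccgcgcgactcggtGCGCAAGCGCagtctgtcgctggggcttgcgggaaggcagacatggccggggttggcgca
Uqcrc1 promoter, chr9:108936398-108936697, plus strand: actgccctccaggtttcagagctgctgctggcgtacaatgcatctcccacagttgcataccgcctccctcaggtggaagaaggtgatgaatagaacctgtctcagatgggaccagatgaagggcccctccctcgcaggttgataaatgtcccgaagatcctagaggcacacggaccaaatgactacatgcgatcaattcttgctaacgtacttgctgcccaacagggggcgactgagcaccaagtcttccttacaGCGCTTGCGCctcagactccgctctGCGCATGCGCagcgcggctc
Cox6a1 promoter, chr5:115348909-115349208, minus strand: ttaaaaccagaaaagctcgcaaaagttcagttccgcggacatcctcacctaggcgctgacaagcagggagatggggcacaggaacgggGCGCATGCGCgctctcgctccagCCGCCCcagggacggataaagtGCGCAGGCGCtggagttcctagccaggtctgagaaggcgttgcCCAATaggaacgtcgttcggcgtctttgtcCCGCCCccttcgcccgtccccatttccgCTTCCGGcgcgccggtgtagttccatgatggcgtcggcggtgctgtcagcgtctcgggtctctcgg
Atp5po promoter, chr16:91931581-91931880, minus strand: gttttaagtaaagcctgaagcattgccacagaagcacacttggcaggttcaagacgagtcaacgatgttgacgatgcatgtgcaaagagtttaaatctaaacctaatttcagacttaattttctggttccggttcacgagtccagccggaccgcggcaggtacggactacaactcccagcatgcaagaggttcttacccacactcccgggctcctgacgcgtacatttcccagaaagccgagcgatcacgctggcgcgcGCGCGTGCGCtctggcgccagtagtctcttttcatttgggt
Sdha held the NRF1 string 3 times, Uqcrc1 and Cox6a1 each held it at 2 places, and Atp5po held it just after the start of transcription. Cox6a1 also held an ETS string. The log2 fold change of Cox6a1 was -0.01 (95% interval -0.18 to 0.15), and those of the other 3 genes are given above.

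Regulators of these genes were near level. Of 12 listed genes, 7 had higher and 5 lower estimates, with a median log2 fold change of 0.015, and 0 were called. Nrf1 itself was at 1.54 ± 0.137 FPKM after Cre (SD, n = 3) and at 1.73 ± 0.225 FPKM in the controls (SD, n = 3). Its log2 fold change was -0.14 (SE 0.134). Ppargc1a, the coactivator PGC-1alpha, had 0.10 (SE 0.136) and Gabpa -0.10 (SE 0.101). Tfam, which packages and transcribes mitochondrial DNA, was at 6.34 ± 0.557 FPKM after Cre (SD, n = 3) and at 5.54 ± 0.397 FPKM in the controls (SD, n = 3). Its groups did not overlap, and its log2 fold change was 0.22 (SE 0.101, edgeR unadjusted p = 0.0656, adjusted p = 0.792).

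As a share of all counts, the 102 nuclear genes took 0.715%, 0.721% and 0.710% in the knockdown libraries and 0.697%, 0.696% and 0.698% in the controls. The groups did not overlap. The mitochondrially encoded genes took 5.96%, 6.18% and 6.09% against 5.19%, 5.42% and 5.54%, also without overlap. All 13 mitochondrially encoded subunits had higher estimates, with a median log2 fold change of 0.176, and 10 of them had groups that did not overlap (76.9%, against 13.0% of all genes tested). None of the 13 was called, and the smallest adjusted p was 0.792.

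**Figure D5:**
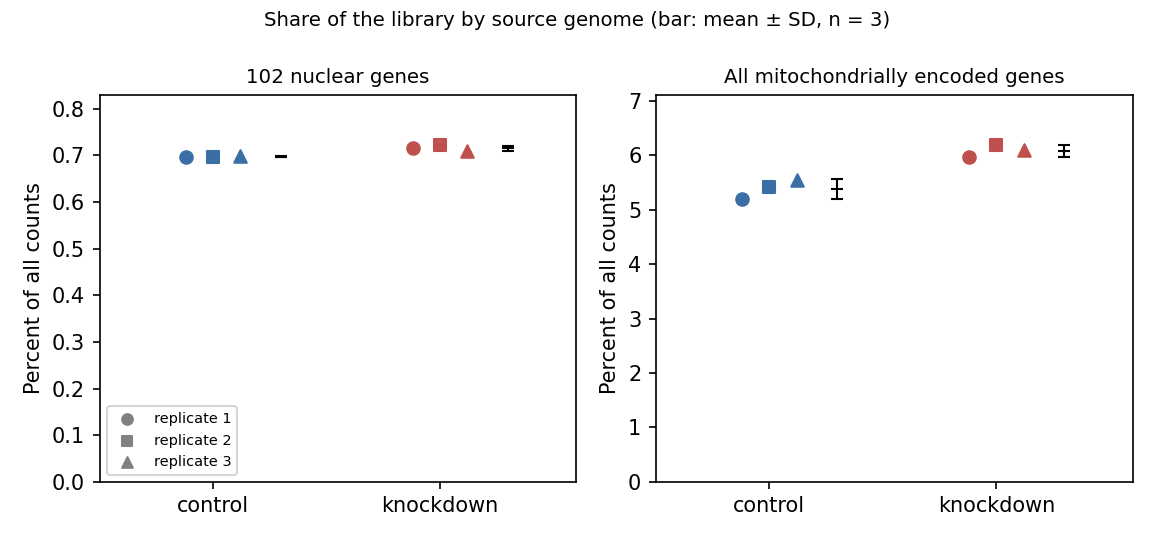
Percent of all counts in each library taken by the 102 nuclear respiratory genes (left) and by all mitochondrially encoded genes (right), with axes from 0 (circles, squares and triangles, replicates 1 to 3; bars, mean ± SD, n = 3). The nuclear share was 0.696% to 0.698% in the controls and 0.710% to 0.721% after Cre, and the mitochondrial share 5.19% to 5.54% and 5.96% to 6.18%.

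Neighbouring pathways gave small differences of the same order, with 0 genes called in any list. Of 51 tested assembly factors outside the naming rule, 28 had higher and 23 lower estimates, with a median of 0.036. The log2 fold change was 0.31 (SE 0.113) for Coa8, which protects complex IV, and 0.21 (SE 0.0750) for Dmac2, which helps assemble the membrane arm of complex I. In the citric acid cycle and pyruvate dehydrogenase list 14 of 16 were higher, with a median of 0.044, led by the malate dehydrogenase Mdh2 at 0.17. Glycolysis genes were higher in 13 of 17 rows with a median of 0.109, and cytosolic ribosomal protein genes in 61 of 76 with a median of 0.063. Mitochondrial ribosomal protein genes had 48 higher of 78 and a median of 0.044.

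Cell type markers were read beside these values. Those of neurons had 5 of 8 higher estimates and a median log2 fold change of 0.08, astrocyte markers 1 of 6 and -0.17, oligodendrocyte markers 0 of 6 and -0.53, and microglia markers 3 of 6 and -0.01. Markers of endothelium had 1 of 5 higher estimates and a median of -0.24, those of pericytes and smooth muscle 0 of 6 and -0.23, those of ependyma 0 of 5 and -1.13, and those of choroid plexus 0 of 8 and -4.32. Summed levels of the endothelium, pericyte and ependyma lists overlapped between the groups, at 26.4 to 34.4, 35.0 to 61.4 and 6.26 to 9.88 FPKM after Cre and 31.6 to 37.6, 43.8 to 66.6 and 6.64 to 24.2 FPKM in the controls. Parvalbumin interneurons, which are rich in mitochondria, had 4 of 5 marker genes higher, with a median of 0.19, at 65.8, 50.3 and 60.0 FPKM summed after Cre and 60.1, 58.3 and 48.9 FPKM in the controls. The part of cell type in the respiratory results was not tested.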

How the data were processed

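Hippocampal poly(A) RNA was sequenced in strand-marked (dUTP) libraries with paired reads of 150 bases, per the labels' protocols. The build GRCm39 is named in the submitters' processing notes, along with edgeR, DESeq2, StringTie 2.1.6, HISAT2 2.2.1 and cutadapt 1.9. Not given in the sources used here are settings, annotation release, strand setting and the treatment of reads that fit several genes. Per the file headers, each library has a deposited estimated count and FPKM column. These estimated counts are whole numbers that pile up at multiples of 4, so they were also tested after division by 4.

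Counts were tested with edgeR 4.0.16 in R 4.3.3, with filterByExpr (20946 genes kept), TMM factors (0.9895 to 1.0168), the quasi-likelihood F test and Benjamini-Hochberg adjustment over all tested genes at 0.05. Variation between libraries, biological or technical, had a common coefficient of 28.6%. A log2 fold change above 0 means more after Cre, and 95% intervals and standard errors derive from F and the estimate. Alternatives were RLE factors, no filter on counts, a replicate block, DESeq2 1.42.0, limma 3.58.1 on log2(FPKM + 1) or log2(FPKM + 0.1) for genes averaging 0.5 FPKM or more, or for all genes, a term for libraries with Y-linked counts, and leaving out each library. Groups were called free of overlap when every FPKM of a group was above every FPKM of the other. The script was tested on simulated counts.

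The naming rule, the gene lists, the roles and the tests were chosen with earlier results of these data known. Named with values were, in each of complexes I, III, IV and V, the 3 tested genes, and in complex II the 1, with the smallest p among those with a mean of at least 1 FPKM, a fixed list of core subunits and isoforms, the most and least abundant gene of each complex, and the largest gaps between groups. 1 gene that this rule names is not reported here. Other genes named were chosen after their values were seen.

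Library pairs differed by a chi-square of at least 24.8 per gene, so no library was a copy of another. Sequences are from the RefSeq promoter table (GRCm38.p6) and GENCODE M21 transcripts, and gene coordinates in the text are those of the deposited table. A comparison of protein sequences was not made here.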

Additional observations from a re-analysis of the deposited data

How the results depend on the processing

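No respiratory gene was called at an adjusted p under 0.05 in any of the 15 alternatives. Over all genes, the 0 calls became 1 with counts divided by 4, 1 with the term for Y-linked counts and 74 in DESeq2, and 0 to 6 when each library was left out, with the 6 without control replicate 1. The 6 respiratory genes at an unadjusted p under 0.05 became 1 with the term for Y-linked counts, which was Atp5mc1, lower, and 2 to 6 when each library was left out, with 2 without knockdown replicate 2 and 3 each without knockdown replicate 3 and control replicate 1. The replicate numbers did not pair the libraries (correlations of same-numbered libraries -0.01, -0.05 and -0.10). With the replicate block 4 genes were at that p, of which 2 were higher. DESeq2 put 7 respiratory genes at that p, and the 3 limma fits put 5 to 8. Over all genes tested, the share at that p moved as well. It was 6.19% in the main fit, 4.72% with the Y-linked term and 5.00% with the replicate block. When each library was left out it was 4.26% to 8.64%, in DESeq2 7.18% and in limma 5.60% to 6.91%. The median change of 0.032 was 0.008 in all 3 limma fits and 0.021 to 0.046 in the other alternatives, and that of complex V, 0.046, was 0.087 with the Y-linked term, 0.072 without control replicate 2 and 0.021 in limma. Respiratory genes whose groups did not overlap numbered 14 to 29 when each library was left out, an alternative added after seeing the data. Their share was 14.4% to 29.9%, against 21.4% to 27.5% of all genes, as fewer libraries overlap less. The lowest share, 14.4% without control replicate 1, stood beside 21.6% of all genes. The highest, 29.9% without control replicate 2, stood beside 27.5%. Directions turned for some genes close to 0 or at low levels. With the Y-linked term the log2 fold changes were 0.01 for Uqcrfs1, 0.15 for Cox4i2, 0.16 for Cox6b2, -0.03 for Cox8a and -0.01 for Ndufa4l2, and in the limma fits -0.01 for Ndufs8 and -0.01 for Cyc1. When each library was left out, values ranged from -0.06 to 0.02 for Uqcrfs1, -0.09 to 0.02 for Cox7a2l, -0.01 to 0.04 for Ndufs8, -0.06 to 0.03 for Cox6a1, -0.06 to 0.09 for Atp5mc2, -0.07 to 0.02 for Cox5a, -0.61 to 0.19 for Cox4i2, -0.06 to 0.01 for Cycs and -1.21 to 0.10 for Cox6b2. The causes were not tested. How many read pairs stand behind a count is unknown, so counting error has no interval here.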

Other observations

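The respiratory genes lay on 19 chromosomes, 3 of them on the X chromosome (Ndufa1, Ndufb11 and Cox7b). The X-linked Ndufa1, a membrane-arm subunit needed for complex I assembly, was at 19.3, 19.4 and 19.4 FPKM after Cre and 22.5, 17.3 and 25.0 FPKM in the controls, so the controls varied more than the knockdown libraries and enclosed them. Its log2 fold change was -0.14 (95% interval -0.53 to 0.26).

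Across the 94 genes that averaged 1 FPKM or more, the change had a Spearman correlation of -0.02 with relative gene length and 0.19 with mean level, a description across genes that are not independent replicates. The shorter 47 genes had a median log2 fold change of 0.028 and the longer 47 a median of 0.035.

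Of the 12 rows left out for their names, Ndufa12-ps had the highest level, at a mean of 40.1 FPKM, followed by Cox5b-ps at 6.07 FPKM, Ndufab1-ps at 2.58 FPKM and Atp5pb-ps at 1.63 FPKM. Their log2 fold changes were 0.12 (95% interval -0.24 to 0.49), -0.16 (95% interval -0.68 to 0.36), -0.34 (95% interval -1.03 to 0.34) and 0.00 (95% interval -0.82 to 0.83), with overlapping groups for all 4.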
